A study of Trichoderma cf. simile with 24 samples.

Results

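Among the genes of Trichoderma cf. simile WF8 whose transcripts changed from day 1 to day 3 in the control, 269 were held back with phenetole. Held back here means that 2 things held. At day 1 the group means of phenetole and control lay less than 2-fold apart after adding 1 FPKM, which shrinks differences between faint levels. At day 3 phenetole differed from the control in the direction opposite to the control's own change. The members are 269 of 12486 numbered gene models and of 13298 loci listed in all. Of these, 202 rose with time in the control and lay lower with phenetole at day 3 (the rising members), and 67 fell with time in the control and lay higher with phenetole (the falling members).

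RNA was sequenced from mycelium of the WF8 strain, an isolate from decaying wood by a coal mine, grown in shaken flasks. Each flask began from an agar plug and was grown for 60 h in the dark in Sabouraud maltose broth before a lignite model compound was added. Mycelium was taken 1 or 3 days later. There were 8 groups of 3 flasks: control without a compound, 9,10-dibutoxyanthracene at 5 mg/L, 4-phenoxybenzoic acid at 10 mg/L, and phenetole at 200 mg/L, each at day 1 and day 3. Copper, manganese and veratryl alcohol are named as further additions to the cultures; the labels do not say whether the control received them. Phenetole was added undiluted, while 4-phenoxybenzoic acid and 9,10-dibutoxyanthracene came dissolved in dichloromethane, at 5% and 2.5% of the culture volume as worked out from stock strength and dose. Compound, dose and solvent volume therefore differ together between the treated groups and cannot be told apart. The labels do not say whether the control received dichloromethane. Compound and solvent therefore cannot be told apart between the solvent-added cultures and the control either. All groups share 1 strain and 1 medium.

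Lignite is brown coal, and the compounds are small aromatic ethers that stand in for bonds in it; phenetole is ethoxybenzene, a volatile alkyl aryl ether. In a batch culture a filamentous fungus first grows on the sugar and peptide supplied and later enters a stationary phase. In that phase Trichoderma species are known to turn on genes of secondary metabolism, of the cell surface and of spore formation, and to turn down genes of growth and nutrient uptake. The IDs come without gene names, so none of the 269 genes is assigned to such a process, and genes are given by ID.

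The 24 libraries held 16767477 to 19842379 counts each. Log2 levels of libraries of the same group correlated at 0.933 to 0.985 across genes. Levels are FPKM (fragments scaled to gene length and library size), as the authors deposited them. In bulk RNA, a smaller share of cells of a type and less RNA per cell cannot be told apart. The replicates are numbered flasks of 1 strain, and the p-values cover the scatter between them. Whether flasks of the same number at day 1 and day 3 are the same culture is not said in the labels.

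Members were chosen by the mean FPKM of the 12 control and phenetole libraries, on the log2(mean FPKM + 1) scale, where a difference of 1 is a doubling. The choice asked for a control time change of at least 1, a difference of phenetole from control at day 3 of at least 1 with the opposite sign, and a difference at day 1 under 1. Of the numbered loci, 1759 met the limit on the control time change and 1150 of these also met the limit on day 1, 553 rising and 597 falling. Members made up 36.5% of those rising and 11.2% of those falling, while in 21 loci phenetole at day 3 differed by at least 1 in the same direction as the control's change. The control and phenetole values below describe the choice and carry no test.

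**Figure D1:**
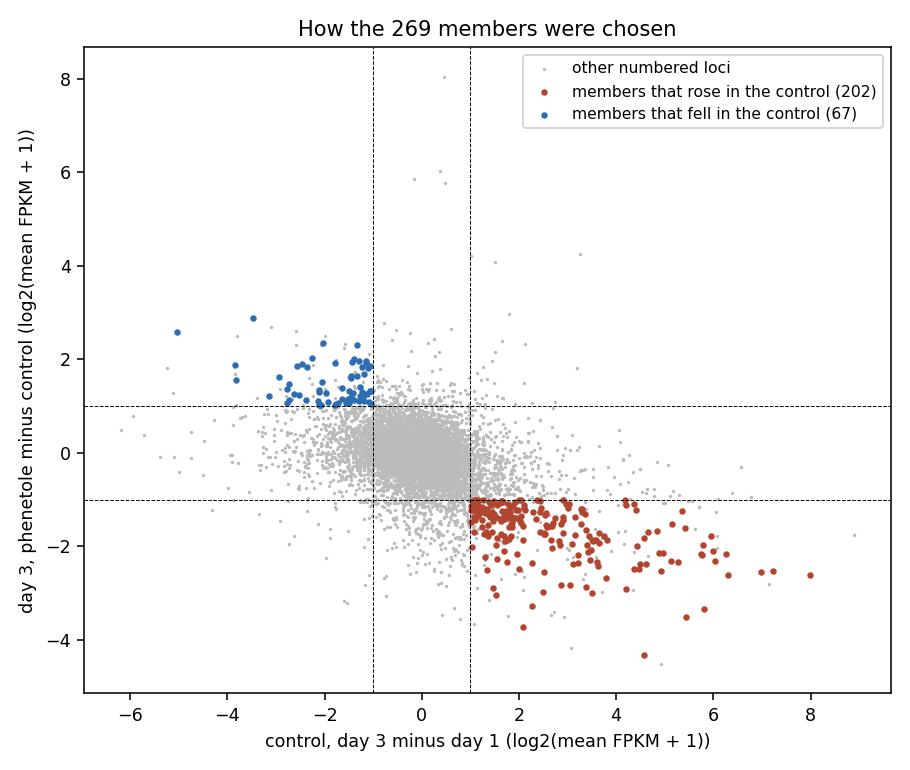
Each point is a numbered gene model. The x axis is the control's change from day 1 to day 3 and the y axis the day 3 difference of phenetole from control, both on the log2(mean FPKM + 1) scale, with dashed lines at 1 and -1. The 202 rising members lie at the lower right and the 67 falling members at the upper left; grey points in those corners differed by 1 or more at day 1.

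The edges of the choice were narrow. Within 0.1 of the limit on the day 3 difference, 36 loci lay inside and 39 outside. The rising member nearest to that limit, Trisim1_007224, stood at -1.002, and the nearest locus outside, Trisim1_003419, at -0.999. Among the falling, Trisim1_006996 lay inside at 1.01 and Trisim1_003106 outside at 0.99. On the limit for the control change, Trisim1_001057 lay inside at 1.01 and Trisim1_008497 outside at 0.996 among the rising, and Trisim1_000675 inside at -1.04 and Trisim1_009962 outside at -0.998 among the falling. On the limit for day 1, Trisim1_002826 lay inside at -0.99 and Trisim1_003609 outside at -1.01 among the rising, and Trisim1_005795 inside at 0.96 and Trisim1_008112 outside at 1.01 among the falling.

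Because the choice used means, flasks can overlap. The phenetole libraries of day 3 all lay below the control libraries of that day in 122 of the 202 rising members. They all lay above in 49 of the 67 falling members. The choice allowed members to separate in that direction only. Over all loci tested 25.6% separated in either direction. These counts come from the contrast that chose the members. When the choice was repeated without each of the 12 flasks in turn, 112 of the 269 members, 96 rising and 16 falling, met it every time.

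The rising members were faint at day 1 and spread widely at day 3. Their median level on the log2(mean FPKM + 1) scale was 0.81 in the day 1 control and 0.63 with phenetole at day 1, and then 3.61 in the control and 1.73 with phenetole at day 3. Their control change ranged from 1.01 to 8.0 with a median of 2.12, and the day 3 difference of phenetole from control from -4.32 to -1.002 with a median of -1.54. In 114 of the 269 members the day 1 control had a mean under 1 FPKM, where the added 1 FPKM sets most of the value. Day 1 levels on counts were thus less alike. In the 199 rising members that passed the filter on low counts, the fitted log2 difference of phenetole from control at day 1 had quartiles of -1.51 and 0.4. It ranged from -7.01 to 5.42. The fitted log2 change with time was larger with phenetole than in the control in 30 of them and smaller in 169.

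Of the rising members, 119 had separate day 3 libraries in control and phenetole and 10 counts or more in every day 3 control library, and the 8 with the largest difference are described here. Trisim1_009861 (1741 bp) stood at 3.59, 2.4 and 4.16 FPKM in the day 1 control flasks and at 3.12, 28.2 and 21.3 FPKM at day 3. With phenetole it stood at 1.36, 1.85 and 2.84 FPKM at day 1 and at 1.08, 0.0309 and 0.093 FPKM at day 3. The rise in the control was thus carried by flasks 2 and 3, and with phenetole the level at day 3 lay below that of day 1. Trisim1_009863 (276 bp), numbered nearly beside it, had a similar course, with 9.9, 26.5 and 45.1 FPKM in the day 3 control and 4.04, 0.975 and 2.35 FPKM with phenetole. Trisim1_008855 (942 bp) also ended lower than it began, at 1.14, 1.14 and 1.38 FPKM with phenetole at day 3 against 28.3, 7.61 and 10.2 FPKM in the control. In these 3 genes the day 3 phenetole libraries lay below the lowest day 3 control library, and the missing part of the control change was 179%, 199% and 197% of it on the log2 scale.

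In 4 of the other 5 genes the phenetole flasks of day 3 lay between the day 1 levels and the control of day 3, with 1 flask of Trisim1_011757 inside its day 1 range; in Trisim1_007355 a single phenetole flask did. Trisim1_006293 (930 bp) went from 0.945, 0 and 0 FPKM to 233, 638 and 135 FPKM in the control, the steepest control rise of all members (8.0 on the log2(mean FPKM + 1) scale), and from 0, 0.621 and 0 to 111, 41 and 8.59 FPKM with phenetole. Trisim1_009881 (861 bp) went from 0.737, 0 and 0 to 101, 148 and 43.7 FPKM in the control and reached 31.4, 11.3 and 2.76 FPKM with phenetole. Phenetole flask 1 was the highest of its group in both genes. Trisim1_011757 (639 bp) reached 25.3, 44.6 and 79.7 FPKM in the day 3 control and 6.97, 2.78 and 0.676 FPKM with phenetole, from at most 0.745 FPKM in any flask of either group at day 1. Trisim1_003296 (632 bp) had 0 counts in all 6 control and phenetole libraries of day 1, where 3 counts over a group would have been 0.0924 FPKM in the control and 0.133 FPKM with phenetole. At day 3 it stood at 23.7, 17.3 and 11 FPKM in the control and at 2.44, 0.852 and 1.02 FPKM with phenetole. Trisim1_007355 (1161 bp) varied between flasks, with 50.6, 10.9 and 9.01 FPKM in the day 3 control against 5.72, 0.232 and 0.325 FPKM with phenetole, where flask 1 alone stood above the 0.197, 0.782 and 0.164 FPKM of day 1.

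A single flask could make a member. Trisim1_008468 (488 bp), singled out after its values were seen, had the largest day 3 difference of all members, -4.32, from 0.259, 67.9 and 0 FPKM in the control and 0, 0 and 0.553 FPKM with phenetole. It and 2 further members, Trisim1_001872 and Trisim1_003217, did not pass the filter on low counts, so 266 members were tested in the comparisons below.

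**Figure D2:**
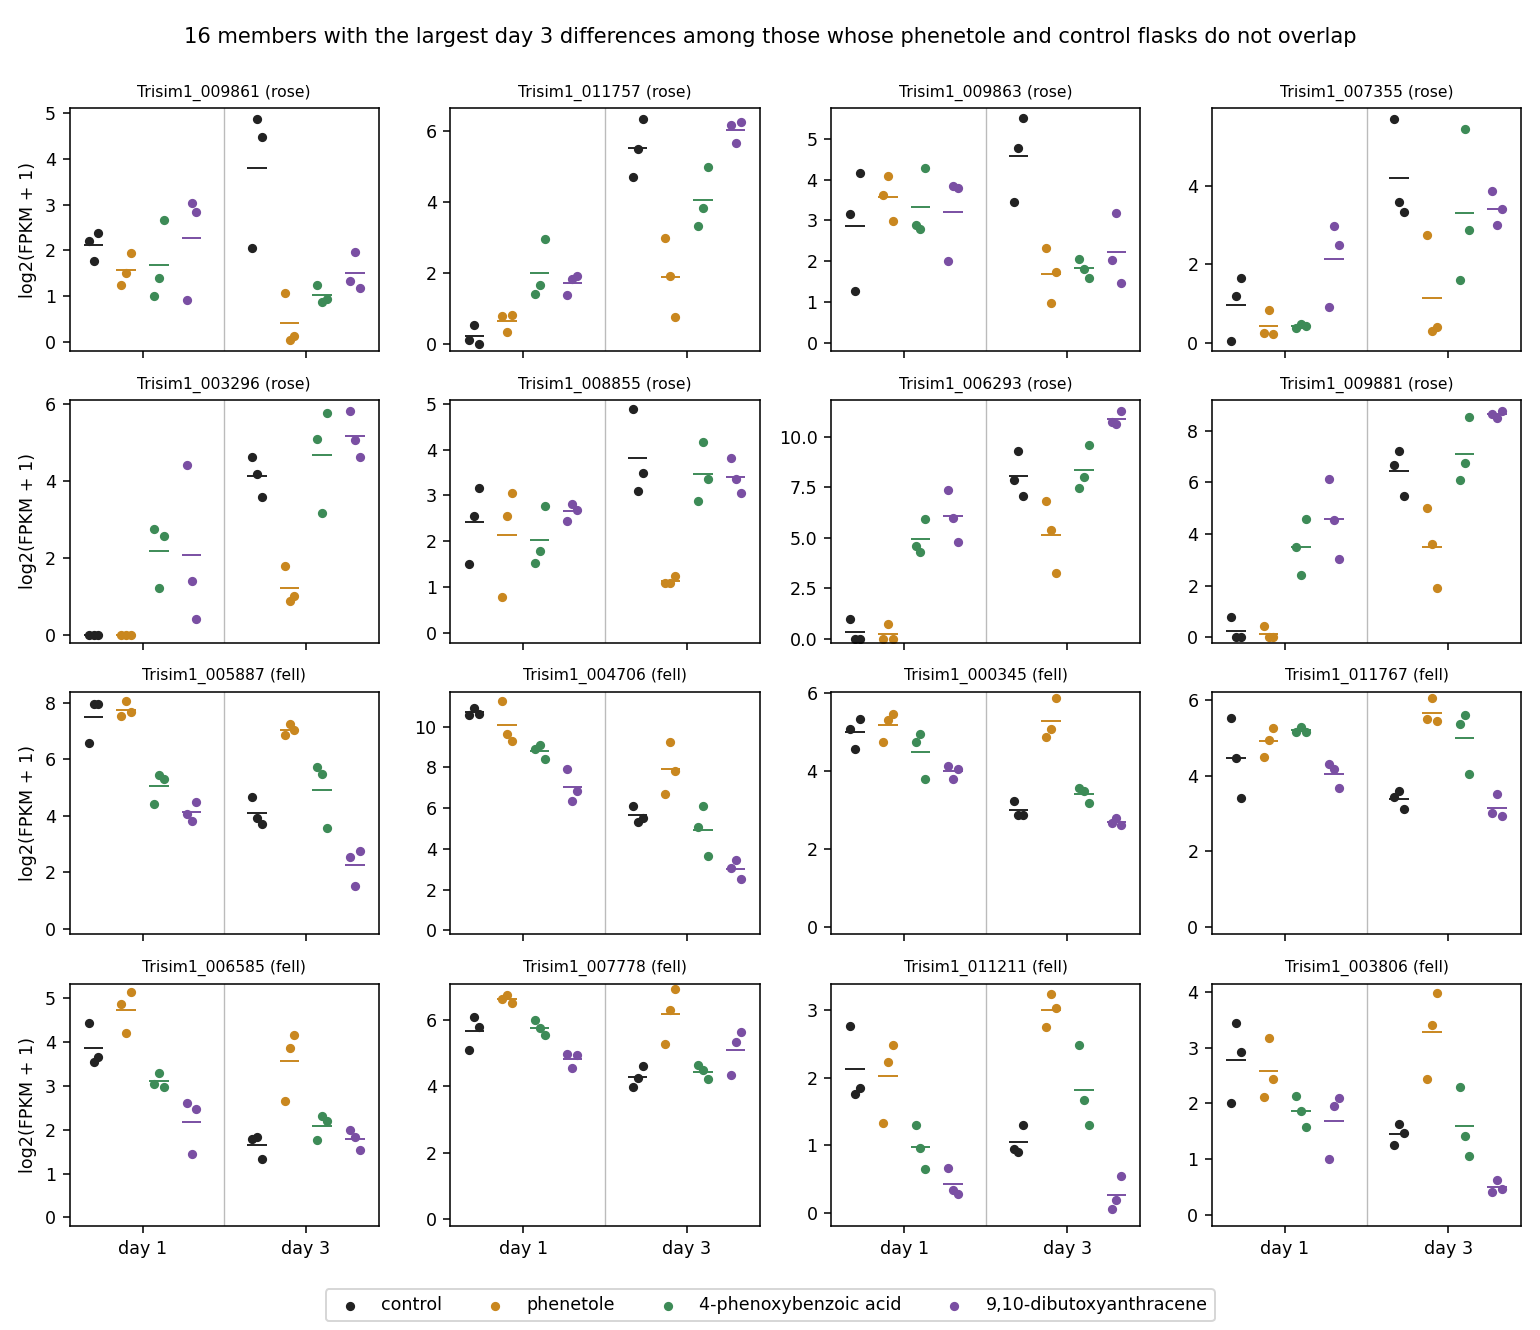
Levels of 16 members as log2(FPKM + 1) in each of 24 libraries, day 1 to the left and day 3 to the right of the grey line in each panel; points are flasks and short lines their mean on that scale. In the 8 genes that rose in the control the phenetole points of day 3 lie below all control points of that day, and in the 8 that fell they lie above.

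The falling members were fewer and longer, and were more abundant at day 1 and with phenetole at day 3. The choice asked for a control fall or rise from day 1 and for day 1 phenetole levels near the control's. At day 3 it asked for phenetole above the control in falling members and below it in rising members. It thus favoured this contrast in the day 1 control, with phenetole at day 1 and with phenetole at day 3. The median level of falling members on the log2(mean FPKM + 1) scale was 4.97 in the day 1 control and 5.2 with phenetole at day 1. At day 3 it was 5.0 with phenetole and 3.45 in the control, where that of the rising members was 3.61. In the dibutoxyanthracene cultures of day 3 the medians were 2.48 for falling and 4.52 for rising members. The median gene length was 1676 bp, against 1168 bp for the rising members and 1581 bp for the numbered loci tested. The control change ranged from -5.03 to -1.04 and the day 3 difference of phenetole from 1.01 to 2.89.

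Of the falling members, 49 met the same conditions for naming, with the counts taken in the phenetole libraries, and the largest difference was in Trisim1_005887 (1344 bp). In the control it stood at 94.4, 249 and 247 FPKM at day 1 and at 24.5, 14.1 and 12.2 FPKM at day 3. With phenetole it stood at 183, 268 and 204 FPKM and then at 116, 150 and 130 FPKM, so that each phenetole flask of day 3 was several times above every control flask of that day. Trisim1_004706 (2496 bp) had the steepest fall in the control, from 1535, 1947 and 1562 to 67.5, 39.3 and 44.8 FPKM; with phenetole it also fell, from 2465, 795 and 623 to 103, 597 and 222 FPKM. Its numbered neighbour Trisim1_004705 (1550 bp) is a member too, and went from 116, 119 and 105 to 7.92, 5.22 and 7.94 FPKM in the control and to 11.3, 47.8 and 25.9 FPKM with phenetole. In both neighbours phenetole flask 1 was the lowest of its group at day 3 and nearest to the control.

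In 5 of the other 6 named falling genes the phenetole level of day 3 exceeded the mean of the day 1 control, all but Trisim1_006585. Trisim1_000345 (942 bp) fell from 32.4, 22.5 and 38.9 to 8.35, 6.23 and 6.24 FPKM in the control and stood at 28.1, 32.6 and 57.1 FPKM with phenetole at day 3. Trisim1_011767 (1969 bp) stood at 44, 65.9 and 42.7 FPKM with phenetole at day 3 against 9.74, 11 and 7.64 FPKM in the control, Trisim1_011211 (1509 bp) at 5.73, 8.42 and 7.15 against 0.92, 0.861 and 1.45 FPKM, and Trisim1_003806 (4351 bp) at 4.43, 9.59 and 14.7 against 1.37, 2.11 and 1.78 FPKM. Trisim1_007778 (1089 bp) had been higher with phenetole already at day 1, by 0.92 on the log2(mean FPKM + 1) scale, and stood at 37.2, 76.5 and 121 against 14.6, 18.2 and 23.4 FPKM at day 3. Trisim1_006585 (546 bp) stood at 5.34, 13.5 and 16.8 against 2.46, 2.56 and 1.5 FPKM. Phenetole flask 1 was again the lowest in 5 of these 6 genes, all but Trisim1_011767.

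Members differed in how far they were held back. The part of the control change that phenetole cultures lacked at day 3, on the log2 scale, was under 50% in 46 rising members, between 50% and 100% in 112, and 100% or more in 44. For falling members the numbers were 11, 35 and 21. The medians were 69.3% and 84.4%. The choice asked for a day 3 difference of at least 1, so a member with a control change under 2 could not lie under 50%. The median control change was 2.12 for rising and -1.52 for falling members, so the choice partly set these shares. The phenetole cultures' own change from day 1 to day 3 went along with the control's by at least 1 in 84 rising and 18 falling members, stayed within 1 in 110 and 47, and went against it by at least 1 in 8 and 2.

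Medians over the members give their level in each library. The median of the rising members on the log2(FPKM + 1) scale lay between 0.73 and 0.8 in the day 1 control flasks and between 0.51 and 0.7 with phenetole at day 1. At day 3 it was 3.28, 3.95 and 3.18 in control flasks 1, 2 and 3, and 2.21, 1.58 and 1.16 with phenetole. Thus control flask 2 was the highest and phenetole flask 3 the lowest. The groups did not overlap, which the choice by the means of these flasks favoured. The median of the falling members was 3.42, 3.34 and 3.24 in the day 3 control and 4.39, 5.07 and 5.23 with phenetole, where flask 1 lay nearest to the control in both classes. Without phenetole flask 1 of day 3 the choice would take 354 genes, and 265 of the 269 members would be among them.

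**Figure D3:**
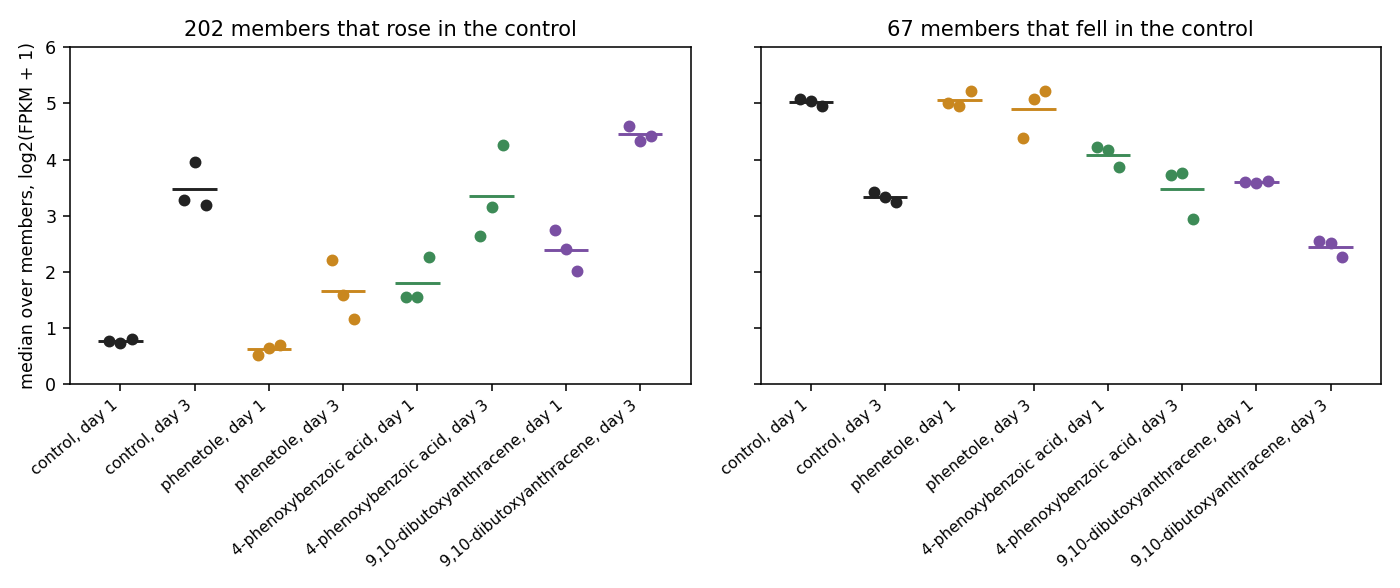
Median level of the members in each library as log2(FPKM + 1), for the 202 rising members on the left and the 67 falling members on the right; points are flasks 1, 2 and 3 from left to right and lines their mean. Phenetole at day 3 lies between the day 1 and day 3 controls for the rising members, and beside the day 1 control for the falling members except for flask 1.

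The cultures with 4-phenoxybenzoic acid or 9,10-dibutoxyanthracene took no part in the choice. At day 1 the flask medians of the rising members were 1.55, 1.55 and 2.27 with 4-phenoxybenzoic acid and 2.74, 2.4 and 2.02 with 9,10-dibutoxyanthracene, above all control and phenetole flasks of that day. At day 3 they were 2.63, 3.16 and 4.25 and then 4.6, 4.33 and 4.43. The 351 other rising loci past the limits on the control change and on day 1 also stood higher there at day 1. Their median on the log2(mean FPKM + 1) scale was 3.98 with 4-phenoxybenzoic acid and 4.37 with 9,10-dibutoxyanthracene. It was 2.5 in the control and 2.49 with phenetole. For the falling members the day 3 flask medians were 3.72, 3.75 and 2.93 with 4-phenoxybenzoic acid and 2.54, 2.51 and 2.25 with 9,10-dibutoxyanthracene. In both classes 4-phenoxybenzoic acid flask 3 of day 3 stood apart from flasks 1 and 2 of its group, on the side of the dibutoxyanthracene cultures, which lay farthest from the day 1 control. These levels are set beside control values that the choice used, so they are given with no test. Compound and dichloromethane cannot be told apart where these cultures are set beside control or phenetole flasks.

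**Figure D4:**
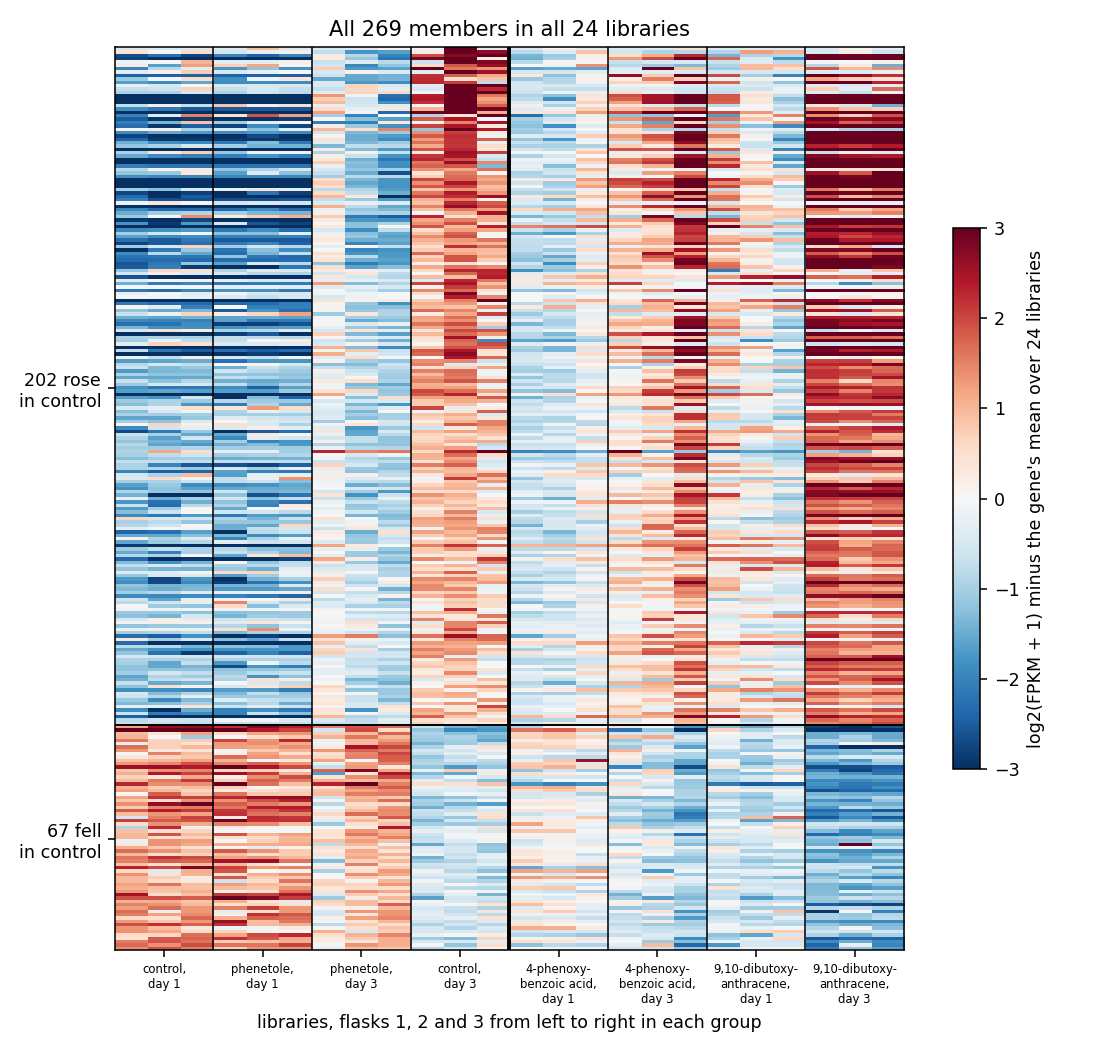
Rows are the 269 members, those that rose in the control above the line and those that fell below it, each sorted by the day 3 difference of phenetole from control; columns are the 24 libraries. Colour is log2(FPKM + 1) minus the gene's mean over all libraries, limited to 3 in either direction. The groups left of the thick line chose the members; to its right the day 3 dibutoxyanthracene libraries hold the highest rising and lowest falling members.

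The change from day 1 to day 3 within the dibutoxyanthracene cultures compares only libraries that took no part in the choice, while the spread and the filter came from all 24 libraries. The edgeR quasi-likelihood test called 107 of 199 rising members (53.8%) as higher at day 3, against 10.0% of all loci tested, and 28 of 67 falling members (41.8%) as lower, against 11.7% of all. The median log2 change was 1.97 for rising and -1.01 for falling members, and -0.03 over all loci. The other loci past the same limits on the control change and on day 1 missed the limit on the day 3 difference of phenetole or differed the other way; 349 that rose in the control and 528 that fell were tested. Most also lay on the held-back side, 255 of the 349 and 342 of the 528 by the sign of the fitted day 3 difference. Of the 349, 65 (18.6%) were called higher with 9,10-dibutoxyanthracene and 45 (12.9%) lower, with a median of 0.16. Of the 528, 105 (19.9%) were called lower and 31 (5.87%) higher, with a median of -0.42. Their own control changes were smaller, with medians of 1.36 against 2.12 for rising loci and -1.4 against -1.52 for falling loci, and the difference between members and these loci was not tested. The 135 calls along the control's direction were 166 when only the dibutoxyanthracene libraries were fitted, and between 92 and 137 when 1 of these was left out.

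The lowest p-values with 9,10-dibutoxyanthracene belonged to Trisim1_006892 among the rising members. It stood at 4.23, 4.29 and 3.72 FPKM at day 1 and at 88.8, 116 and 164 FPKM at day 3, a log2 change of 4.88 ± 0.61 (SE; adjusted p = 5.49e-05, edgeR). The day 3 flasks of that culture were all above 80 FPKM, while the control reached 8.48, 14.1 and 13.3 FPKM and phenetole 3.44, 0.76 and 2.76 FPKM. Trisim1_007027 rose by 3.27 ± 0.49 (adjusted p = 0.000201) and Trisim1_006715 by 2.36 ± 0.36 (adjusted p = 0.000228). Of the 8 rising genes described first, Trisim1_011757 rose by 4.81 ± 0.74 (adjusted p = 0.00026), Trisim1_006293 by 4.49 ± 1.03 (adjusted p = 0.00452) and Trisim1_009881 by 3.58 ± 0.93 (adjusted p = 0.00941, edgeR; 0.0509 without day 1 flask 2). Trisim1_006293 reached 1720, 1628 and 2481 FPKM, several times the control of that day. The other 5 did not pass. Trisim1_009861 and Trisim1_009863 had log2 changes of -1.34 ± 0.85 (adjusted p = 0.273) and -1.18 ± 0.77 (adjusted p = 0.289, edgeR). Those of Trisim1_003296, Trisim1_007355 and Trisim1_008855 were 2.29 ± 0.96, 1.25 ± 1.09 and 0.87 ± 0.63 (adjusted p = 0.0977, 0.442 and 0.341, edgeR).

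Among falling members, Trisim1_008282 (3236 bp) had the lowest p-value. It went from 86.1, 76.1 and 65 to 10.8, 12.5 and 13.4 FPKM with 9,10-dibutoxyanthracene, a log2 change of -2.65 ± 0.26 (adjusted p = 7.16e-06, edgeR). The flasks of the days lay far apart, whereas with phenetole the same gene stood at 86, 101 and 115 FPKM at day 1 and 131, 163 and 190 FPKM at day 3. Trisim1_008729 fell by 2.57 ± 0.39 (adjusted p = 0.000243), Trisim1_004705 by 2.96 ± 0.49 (adjusted p = 0.000428) and its neighbour Trisim1_004706 by 4.33 ± 0.72 (adjusted p = 0.000444, edgeR). A pair of members changed against the control's direction. Trisim1_002853 (1035 bp), a rising member, fell from 23, 27.1 and 12.6 to 1.64, 0.298 and 0.995 FPKM, by 4.45 ± 0.85 (adjusted p = 0.00128). Trisim1_011237, a falling member singled out after its values were seen, was called higher (adjusted p = 0.0237, edgeR) on 33.2, 1780.0 and 41.7 FPKM at day 3, where only flask 2 stood above the 47.5, 54 and 97.8 FPKM of day 1; the call was lost without that flask and without day 1 flask 1 or 2.

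With 4-phenoxybenzoic acid 67 members were called along the control's direction and 1 against it, and the calls depended on single flasks. The edgeR test called 54 of 199 rising members (27.1%) as higher at day 3, against 1.82% of all loci tested, and 13 of 67 falling members (19.4%) as lower, against 1.22% of all. The median log2 change was 1.88 for rising and -0.82 for falling members, and 0.01 over all loci. Of the other loci past the limits on the control change and on day 1, 35 of 349 that rose in the control (10.0%) were called higher and 0 lower, and 36 of 528 that fell (6.82%) were called lower and 2 higher. The 67 member calls became 133 when only the 4-phenoxybenzoic acid libraries were fitted with the flask number as a block, a fit added after the data were seen. They became 3 without day 1 flask 1 and 3 without day 1 flask 2, 33 without day 1 flask 3, 42 without day 3 flask 2 and 6 without day 3 flask 3. Without that last flask the median log2 change of rising members was 1.29.

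The lowest p-values with 4-phenoxybenzoic acid belonged to Trisim1_000921, Trisim1_000232 and Trisim1_001782 among rising members. Trisim1_000921 (2079 bp) went from 0.0627, 0 and 0.0654 to 2.19, 1.59 and 2.63 FPKM, a log2 change of 5.54 ± 0.88 (adjusted p = 0.00522, edgeR). It also rose with 9,10-dibutoxyanthracene, by 4.5 ± 0.76 (adjusted p = 0.000627). Trisim1_000232 (939 bp) went from 8.56, 11.5 and 21.2 to 53.2, 52.7 and 169 FPKM, by 2.73 ± 0.49 (adjusted p = 0.00911), and Trisim1_001782 (1479 bp) from 8.58, 9.61 and 13.7 to 49.4, 28.9 and 170 FPKM, by 2.95 ± 0.54 (adjusted p = 0.00949, edgeR). In Trisim1_000232 and Trisim1_001782, flask 3 of day 3 was far above flasks 1 and 2, and the day groups did not overlap. Among falling members, Trisim1_004705 went from 35.1, 41.6 and 27.9 to 4.09, 7.28 and 2.19 FPKM (a fall by 2.92 ± 0.48; adjusted p = 0.00522), Trisim1_004706 from 469, 540 and 338 to 32.1, 67 and 11.5 FPKM (by 3.58 ± 0.69; adjusted p = 0.0117), and Trisim1_007814 from 8.43, 8.68 and 8.07 to 2.4, 1.92 and 1.63 FPKM (by 2.07 ± 0.42; adjusted p = 0.0138, edgeR). Trisim1_000921 and Trisim1_004705 passed under each of 13 alternatives. Without day 1 flask 1 and without day 1 flask 2 the adjusted p was 0.0645 and 0.0532 for Trisim1_000232 and for Trisim1_001782, and 0.0621 and 0.0532 for Trisim1_007814. Without day 3 flask 3 it was 0.0553 for Trisim1_001782, 0.079 for Trisim1_007814 and 0.0553 for Trisim1_004706. The single call against the control's direction was Trisim1_006634, a falling member named after its values were seen, which rose from 33.3, 28 and 32.8 to 179, 84.3 and 53.4 FPKM (adjusted p = 0.0494, edgeR); it was lost when any 1 of the 6 libraries compared was left out.

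The time changes with the 2 solvent-added compounds share no library. Of the rising members, 47 were called higher at day 3 in both. That is 87.0% of the 54 called higher with 4-phenoxybenzoic acid and 43.9% of the 107 called higher with 9,10-dibutoxyanthracene. Of the 199, 85 were called higher in neither (42.7%). Of the falling members, 8 were called lower in both, 61.5% of 13 and 28.6% of 28, and 34 of 67 were called lower in neither (50.7%). Over all loci tested, 126 were called higher in both, 64.0% of 197 and 11.6% of 1089, and 57 were called lower in both, 43.2% of 132 and 4.51% of 1265; 89.3% were called higher in neither and 87.6% lower in neither. The test of the difference between the time changes called 5 members, 1 of 199 rising and 4 of 67 falling (1.5% of all loci tested). For most members a difference was thus not shown. Leaving out a single library gave 0 to 10.

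**Figure D5:**
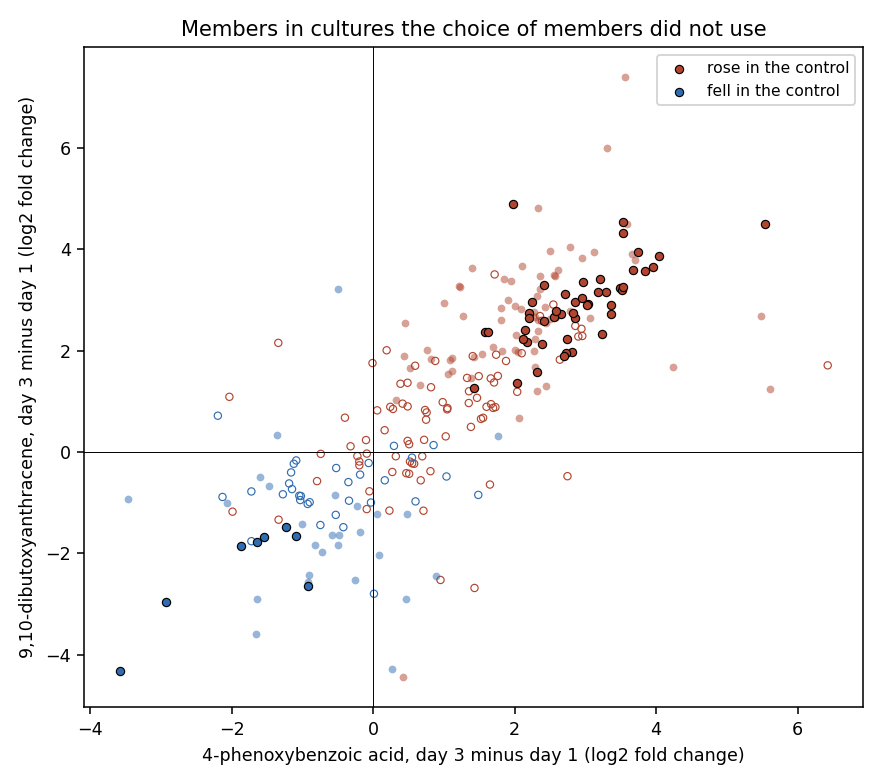
Log2 fold change from day 1 to day 3 of the 266 members tested, with 4-phenoxybenzoic acid on the x axis and 9,10-dibutoxyanthracene on the y axis. Open circles were called in neither, pale filled circles in 1 and outlined circles in both (adjusted p under 0.05 in either direction, edgeR). Rising members lie mostly at the upper right and falling members at the lower left; no line was fitted.

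At day 3 the share of members called between these cultures lay above the background for falling members and near or below it for rising members. With 9,10-dibutoxyanthracene, 19 of 199 rising members were called higher than with 4-phenoxybenzoic acid (9.02% of all loci were) and 2 lower, and 27 of 67 falling members (40.3%) were called lower (10.7% of all) and 1 higher. Of the other loci past the limits on the control change and on day 1, 107 of 528 that fell (20.3%) were called lower and 31 higher. Of the 349 that rose, 15 (4.3%) were called higher and 18 lower. The difference between members and these loci was not tested. The median log2 difference was 0.88 for rising and -1.19 for falling members, and -0.06 over all loci. Trisim1_008282 was lower, with a log2 difference of -2.28 ± 0.26 (adjusted p = 5.19e-05, edgeR), with 10.8, 12.5 and 13.4 FPKM against 62.5, 72 and 36.4 FPKM. Trisim1_005887 was lower by 3.16 ± 0.52 (adjusted p = 0.000962), with 4.83, 1.87 and 5.77 against 51.6, 43.5 and 11 FPKM, and Trisim1_006892 was higher by 3.18 ± 0.56 (adjusted p = 0.0013, edgeR). The 49 member calls became 96 without 4-phenoxybenzoic acid flask 3, 23 without its flask 1, 29 without its flask 2 and 30 without 9,10-dibutoxyanthracene flask 3. At day 1 a single member was called, Trisim1_007139 (0.0738% of all loci were called), with 4.24, 3.2 and 2.4 FPKM with 9,10-dibutoxyanthracene against 20.1, 17 and 20.9 FPKM with 4-phenoxybenzoic acid (adjusted p = 0.0112, edgeR). At an unadjusted p under 0.05 (edgeR) it was 60 of 266 members (22.6%), against 8.61% of all loci. By class it was 32 of 67 falling members (47.8%) and 28 of 199 rising members (14.1%). Of the other loci past the limits on the control change and on day 1 it was 18.2% of the falling and 20.6% of the rising. The 1 call became 3 without 9,10-dibutoxyanthracene flask 1, and 0 without its flask 2 or without its flask 3.

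The most abundant falling members were a pair of neighbours in the gene numbering. Trisim1_003506 (1350 bp) stood at 4790, 6309 and 5795 FPKM in the day 1 control and 1524, 2011 and 3456 FPKM in the day 3 control, against 3863, 8091 and 6631 FPKM with phenetole at day 3. Trisim1_003507 (1854 bp) stood at 2940.5, 5462 and 2826 FPKM, then 960, 1365 and 1645 FPKM, against 2109, 4439 and 3329 FPKM with phenetole. Both fell in the control and neither group of day 3 overlapped the other. With 9,10-dibutoxyanthracene Trisim1_003507 fell by 1.97 ± 0.45 with time (adjusted p = 0.00455), and Trisim1_003506 had a log2 change of -1.24 ± 0.45 (adjusted p = 0.0519, edgeR). The most abundant rising members were Trisim1_005874 (432 bp), at 2906, 5142 and 7320 FPKM in the day 3 control against 2014, 2572 and 1383 FPKM with phenetole, and Trisim1_009711 (1431 bp), at 1302, 1937 and 5056 against 1048, 576 and 1396 FPKM. Phenetole and control flasks of day 3 did not overlap in the former and did in the latter. Trisim1_009711 rose with time with 9,10-dibutoxyanthracene, by 1.65 ± 0.47 (adjusted p = 0.0156; 0.0642, 0.0601 and 0.0588 without day 1 flask 1, day 1 flask 2 and day 3 flask 3), while Trisim1_005874 changed by -0.04 ± 0.47 (adjusted p = 0.967, edgeR).

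Members lay next to each other in the gene numbering. Of the 269, 62 (23.0%) had another member at the next or the previous number, as did 438 of the 10197 numbered loci tested (4.3%). They formed 29 runs of adjacent numbers, 4 of them of 3 genes, and in 26 runs all genes moved in the same direction. With 202 members rising and 67 falling, a shared direction is common in any case. Neither that share nor the share of neighbours among other loci that changed with time in the control was worked out. Among the runs of 3, the largest mean day 3 difference of phenetole from control was that of Trisim1_006619, Trisim1_006620 and Trisim1_006621 (615, 576 and 1093 bp). Trisim1_006620 had a single flask above 0 FPKM among the 6 control and phenetole flasks of day 1, at 0.424 FPKM, and stood at 17.2, 32 and 24.9 FPKM in the day 3 control and 9.22, 1.68 and 1.03 FPKM with phenetole. Trisim1_006619 stood at 8.68, 17.1 and 7.34 against 5.5, 0.788 and 0.614 FPKM, and Trisim1_006621 at 11.6, 16.7 and 6.07 against 2.78, 1.87 and 0.889 FPKM. All 3 were highest with 9,10-dibutoxyanthracene at day 3, where the middle gene reached 129, 112 and 184 FPKM. They rose with time there by 3.15 ± 0.75, 4.33 ± 0.89 and 2.95 ± 0.73 on the log2 scale (adjusted p = 0.00744, 0.0026 and 0.00748, edgeR), and with 4-phenoxybenzoic acid by 3.3 ± 0.78, 3.54 ± 0.88 and 2.86 ± 0.74 (adjusted p = 0.0317, 0.036 and 0.0389). The calls with 4-phenoxybenzoic acid were lost in all 3 genes without any 1 of the day 1 flasks or without day 3 flask 3, and in Trisim1_006621 also without day 3 flask 2, with adjusted p of up to 0.168 for Trisim1_006619, 0.178 for Trisim1_006620 and 0.248 for Trisim1_006621. The labels do not say whether counting used strand, so reads of overlapping neighbours could not be told apart.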

How the data were processed

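RNA sequencing of 24 libraries gave raw read counts per gene, as deposited, and the FPKM values the authors made from them. Counting was done with featureCounts 1.5.0-p3, per the submitters' processing notes; no aligner or genome build is named in the sources used here. Poly-A libraries with fragments of 370 to 420 bp were read as pairs of 150 bp, per the labels. Checked against the deposited counts, each FPKM is the count over gene length and over a library size scaled by a median-of-ratios factor; all 12728 lengths recovered were whole within 0.01. Members and lists were chosen with earlier results of these data known.

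Counts were tested in R 4.3.3 with edgeR 4.0.16. With a minimum count of 10, filterByExpr kept 10842 loci. After TMM scaling, 1 quasi-likelihood model with a coefficient for each of 8 groups took in all 24 libraries. Tests were two-sided, with Benjamini-Hochberg adjustment over all loci tested, and a gene was called under 0.05. SE are those implied by the F statistic. The test was also run on counts simulated from the fitted model, a run that cannot show how well the model fits the data. Alternatives used DESeq2 1.42.0, limma 3.58.1 on log2(FPKM + 1) and fits without single libraries.

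Named genes are, per direction, the 8 with the largest day 3 difference among tested members with separate day 3 flasks and 10 counts or more in each flask of whichever of control and phenetole was higher, the 3 with the lowest adjusted p for time in each solvent-added culture, the 2 lowest for the difference of time changes, the 2 most abundant, those at each limit, and the longest run of numbers. Deviations of 4-phenoxybenzoic acid flasks from their day means correlated between days at 0.2, 0.11 and 0.31 for flasks 1, 2 and 3. The highest correlations with a flask of another number were 0.021, 0.12 and -0.1, so flask 2 was no closer to its own number. The labels do not say whether flasks of the same number are pairs. The main fit used no block, and flask numbers entered only the alternative fits with a block. A floor of 3 counts over a group covers counting error only.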

Additional observations from a re-analysis of the deposited data

Results flagged for a closer look

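In 5 members the change from day 1 to day 3 differed between 9,10-dibutoxyanthracene and 4-phenoxybenzoic acid cultures by the test of the difference itself (edgeR, all 24 libraries). They are 1.88% of the 266 tested, beside 1.5% of all loci. By class they are 4 of 67 falling members (5.97%) and 1 of 199 rising members (0.5%). Compound, dose and solvent volume differ together between these cultures. Trisim1_008282 fell more with 9,10-dibutoxyanthracene, with a log2 difference of the changes of -1.74 ± 0.35 (SE; adjusted p = 0.0172), while its log2 change with 4-phenoxybenzoic acid was -0.92 ± 0.25 (adjusted p = 0.0458). That call was lost in 7 of 13 alternatives, with an adjusted p of up to 0.245 (without day 3 flask 3). Trisim1_009090 differed by -3.34 ± 0.71 (adjusted p = 0.0236). It went from 41.9, 96.8 and 149 to 22.1, 13 and 18.2 FPKM with 9,10-dibutoxyanthracene and from 40.9, 62.2 and 46.2 to 83.2, 155 and 32.9 FPKM with 4-phenoxybenzoic acid. Trisim1_002853, the rising member that fell with 9,10-dibutoxyanthracene, differed by -4.86 ± 1.1 (adjusted p = 0.0302). It stood at 4.95, 8.7 and 7.97 and then at 18.5, 6.32 and 3.79 FPKM with 4-phenoxybenzoic acid. Trisim1_008611 and Trisim1_008735, falling members named after their values were seen, differed by -3.37 ± 0.77 (adjusted p = 0.0325) and -1.7 ± 0.42 (adjusted p = 0.0436). Both fell with 9,10-dibutoxyanthracene, and their log2 changes with 4-phenoxybenzoic acid, 0.47 ± 0.5 and 0.47 ± 0.29, did not pass the test. Leaving out a single library gave between 0 and 10 such members: 1 without 4-phenoxybenzoic acid day 1 flask 1 or 9,10-dibutoxyanthracene day 3 flask 3, 2 without 4-phenoxybenzoic acid day 1 flask 2 or 9,10-dibutoxyanthracene day 1 flask 3, 0 without 4-phenoxybenzoic acid day 1 flask 3, its day 3 flask 1 or 2, or 9,10-dibutoxyanthracene flask 2 of either day, and 10 without 4-phenoxybenzoic acid day 3 flask 3.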

How the results depend on the processing

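With 0.1 FPKM added in place of 1, 470 loci met the choice, 198 of the 269 members among them; averaging log2 values gave 271 and TMM-scaled CPM 306, and leaving out a flask 244 to 354. Member calls along the control's direction with 9,10-dibutoxyanthracene stayed within 1.5 times of 135 under every alternative run (92 to 137 without a library). With 4-phenoxybenzoic acid the 67 calls became 110 with DESeq2, 133 with only the compared groups and the flask number as a replicate block, and 3 to 79 without a library; with the block over all 24 libraries they were 75. Calls against the control's direction with 4-phenoxybenzoic acid, 1, became 0 with the compared groups only and with limma. They became 2 with the compared groups and the block, and 0 to 0 without a library. With 9,10-dibutoxyanthracene, 2 such calls became 1 with DESeq2, with limma and with the replicate block, and 1 to 2 without a library. For the difference of time changes, 5 became 12 with DESeq2, 9 with limma and 0 to 10 without a library. Between the compounds, the day 1 count of 1 became 4 with DESeq2, 2 with the compared groups only and 0 to 3 without a library, and the day 3 count of 49 became 82 with the compared groups only, 82 with limma and 23 to 96 without a library. The block changed the direction of none of the 42 named results. Of 538 alternative values for these results, 449 passed the test as before, 89 no longer did and 0 changed sign. Deviations of the 9,10-dibutoxyanthracene flasks 1, 2 and 3 correlated between days at 0.16, 0.0023 and 0.1. The highest correlations with a flask of another number were -0.065, 0.026 and 0.078. Control flasks 1, 2 and 3 correlated between days at 0.28, 0.061 and 0.4, and at most at 0.043, 0.09 and -0.1 with another number. For phenetole the values were -0.03, -0.082 and 0.036, and at most 0.13, 0.098 and 0.052 with another number. Whether flask numbers are pairs stays unsettled for the control and for all compounds. The causes of these moves were not tested. In 11 members the day 1 control held 0 counts, so their level there is known only to lie under the floor of 3 counts.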
